A study of Rattus norvegicus with 10 samples.

Results

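The genes described here encode parts of the centrosome, the cilium and the axoneme, the microtubule core of a cilium. They are all genes of the deposited expected-count table whose symbol is Cep, Ift, Bbs or Dnah followed by a number alone. Of 17168 genes in the table, 34 met this rule: 16 Cep genes, 11 Ift genes, 6 Bbs genes and 1 Dnah gene, Dnah1. Of these, 33 passed the filter on low counts and were tested; Cep55 did not.

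The centrosome holds a pair of centrioles, and in a resting cell the older of them anchors the primary cilium, a solitary antenna that does not beat and that carries receptors. Cep proteins build and cap centrioles and gate the ciliary base. Ift proteins form the trains of intraflagellar transport that carry cargo along the axoneme, and Bbs proteins form the BBSome, an adaptor that moves membrane receptors out of the cilium. Hippocampal neurons and astrocytes carry primary cilia. Ependymal cells, which line the ventricles beside the hippocampus, carry tufts of beating cilia, whose strokes are driven by axonemal dyneins such as Dnah1.

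Sequenced RNA came from 10 left hippocampi, 1 library per rat, all from TgF344-AD males aged 11 months. This Fischer line is a transgenic model of Alzheimer's disease, so every rat in both groups was transgenic; wild-type rats were not analysed here. The untreated group (5 rats) ate plain chow, and the RG2833 group (5 rats) ate chow holding 750 mg per kg of RG2833, which inhibits the histone deacetylases HDAC1 and HDAC3, from the age of 5 months and for 6 months. The design text names ibudilast in its sentence on timing, whereas the treatment label of each rat names RG2833, which was followed.

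Libraries held 15118203 to 18533520 expected counts. Neuronal markers were high in all 10 libraries (10 genes summed to 5866 to 8463 CPM, the count scaled to the TMM library size). Choroid plexus RNA was uneven: the summed level of 15 marker genes was 8611 CPM in untreated replicate 2 and 9965 CPM in RG2833 replicate 1, against 16.9 to 310.4 CPM in the other 8 libraries. The choroid plexus also lies beside the hippocampus and carries cilia, so the main results are given below with and without those 2 libraries.

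Promoter sequences were looked up because RFX factors, which bind a motif called the X-box, are known regulators of ciliary genes. RefSeq promoters of the GRCr8 assembly, 250 bases before to 50 bases after the gene start, matched 29 of the 34 genes. The letters GTTGCC, an arm of the X-box, were present on either strand in 12 of the 29 (41.4%): 5 of 15 Cep, 4 of 8 Ift and 3 of 5 Bbs genes, and not in Dnah1. Of all 27457 genes with a promoter, 13.1% held them. That set is larger than the expected-count table, so it is not limited to the genes measured here. Base composition was not matched. Other ciliary lists held them too: 15 of 38 axonemal genes (39.5%) and 8 of 15 transition-zone genes (53.3%). The stretches of 30 bases around each match are shown along the gene's strand, with GTTGCC or its complement in capitals.

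Bbs1: ctggctgagctgGTTGCCaagacgacgcct
Bbs2: tatccgctgctaGGCAACcggcctgccaag
Bbs5: caaagccgatgcGTTGCCttggtgtccata
Cep112: gggcgtcgccatGGCAACagagttgaatgc
Cep19: gcgcgccccgctGTTGCCtagagaacgatc
Cep57, upstream copy: ccaactcacgacGTTGCCgtccccgcaggc
Cep57, downstream copy: ctgtcaagacgcGTTGCCtttcccttgcgc
Cep89: tcggttgtcaagGGCAACgggtggcagtaa
Cep97: cggctgaggacgGTTGCCgggtgtcattag
Ift20: tatttctctcgtGTTGCCtctatttcccag
Ift27, upstream copy: catcctggttggGTTGCCtctccaaagaca
Ift27, downstream copy: gggttgatgataGTTGCCaggagcctgttt
Ift81: acatcactgcatGGCAACcGTTGCCaagga
Ift88: ggagccgcacctGGCAACggctgggcgtcc

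In Ift81 the letters stood on both strands, separated by a single base. A complete X-box of the exact form GTTNCC and GGNAAC, with 0 to 3 bases between them, was in none of the 29 promoters. It was in 0.929% of all genes' promoters and in 4 of 15 transition-zone promoters (Ahi1, Mks1, Tctn1 and Tctn3). Looser forms are not counted here: Cep112 held gtcgcc shortly before GGCAAC, which differs from this form in a single base. The forkhead letters GTAAACA were in 1 of the 29 (3.45%, against 4.13% of all genes), which was Cep95. The ETS letters CCGGAAG were in 8 of the 29 (27.6%, against 9.63%): Bbs4, Cep112, Cep55, Cep63, Cep95, Dnah1, Ift20 and Ift88. These matches are descriptions of the letters and say nothing of binding.

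None of the 33 tested genes passed the comparison of RG2833 with untreated rats. The edgeR quasi-likelihood test was run on 12161 genes, of which 0% had a Benjamini-Hochberg adjusted p under 0.05; the lowest adjusted p of the 33 was 0.841. Cep95 and Cep85, both lower in RG2833, were the 2 of 33 with an unadjusted p under 0.05. Of all genes 5.66% had such a p, 2.71% lower and 2.94% higher, so 2 of 33 is close to the background. Of the 32 Cep, Ift and Bbs genes tested, 24 had a log2 fold change (RG2833 minus untreated) below 0, with a median of -0.04, where 53.5% of all genes were below 0 with a median of -0.01. With 1 library left out the count was 19 to 25 of 32; the 19, with a median of -0.01, came without untreated replicate 2, in a fit where 49.3% of all genes were below 0. Without RG2833 replicate 1 it was 25 of 32 with a median of -0.07 (55.6% of all genes), without untreated replicate 3 it was 25 of 32 with a median of -0.09 (54.3%), and without both choroid-rich libraries 22 of 32 with a median of -0.03 (54.6% of all genes). In whole tissue, fewer cells of a type and less RNA per cell cannot be told apart.

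**Figure D1:**
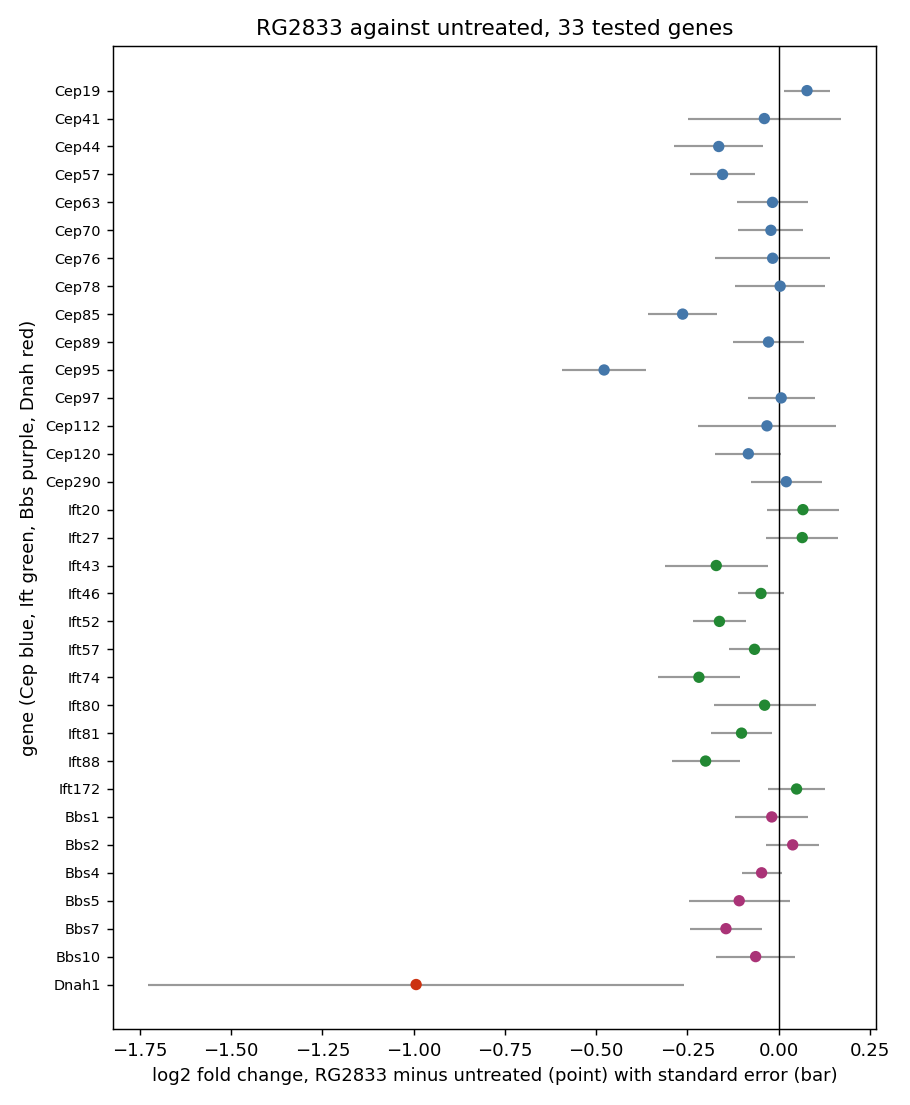
Log2 fold change of RG2833 against untreated for the 33 tested genes (points) with its standard error (bars), 5 rats a group; the horizontal axis is the log2 scale and genes are ordered by family. Cep95 (-0.48) and Cep85 (-0.26) are the 2 genes at an unadjusted p under 0.05, and Dnah1 (-0.99) has by far the widest bar, 0.73.

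Cep95, which encodes a centrosomal protein, was the gene of the 34 with the smallest p. Its level was 11.1, 13.2, 16.1, 10.6 and 12.2 CPM in untreated replicates 1 to 5 and 8.52, 9.37, 8.95, 8.96 and 9.54 CPM in RG2833 replicates 1 to 5. Every RG2833 rat was below every untreated rat, and the treated rats lay close together while untreated replicate 3 stood highest. The means were 12.6 ± 2.18 and 9.07 ± 0.40 CPM (SD, n = 5 each); the log2 fold change was -0.48 with an SE of 0.11 (edgeR adjusted p = 0.841). For the single gene, the two-sided exact permutation p on log2 CPM was 0.00794, the smallest that 5 against 5 allows; Cep95 was the only one of the 33 whose groups did not overlap, beside 1% of all genes (0.584% lower in RG2833). Without untreated replicate 3 the log2 fold change was -0.38. With 2 surrogate variables in the model the adjusted p was 0.0417; in that fit 118 genes passed and 16% of all genes had an unadjusted p under 0.05.

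The Cep95 promoter is shown because it faces another gene. In RefSeq, Cep95 on the plus strand and Ddx5, an RNA helicase gene, on the minus strand start head to head and overlap at their first bases. The window is chr10:92231579-92231878 (GRCr8, plus strand); capitals mark TGTTTAC, the complement of GTAAACA, and CCGGAAG.

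Cep95: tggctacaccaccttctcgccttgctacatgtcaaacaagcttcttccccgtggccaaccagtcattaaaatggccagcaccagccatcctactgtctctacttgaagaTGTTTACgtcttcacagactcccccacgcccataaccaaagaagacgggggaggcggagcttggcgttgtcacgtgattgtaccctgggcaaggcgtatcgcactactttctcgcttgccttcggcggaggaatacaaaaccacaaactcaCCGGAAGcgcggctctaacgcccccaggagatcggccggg

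Ddx5 was at 461, 518, 358, 443 and 430 CPM in untreated and 455, 392, 440, 351 and 364 CPM in RG2833 replicates 1 to 5, so its groups overlapped. Its log2 fold change was -0.14 (SE 0.11; edgeR adjusted p = 0.903). The next gene on that side, Polg2, the accessory subunit of mitochondrial DNA polymerase, had a log2 fold change of -0.36 (SE 0.21), and on the other side Smurf2, a ubiquitin ligase, had 0.11 (SE 0.09) and Kpna2, a nuclear import factor, 0.04 (SE 0.06). None of these neighbours passed. The libraries were strand-specific, but whether strand was used in counting is not given in the sources used here, so reads of Cep95 and Ddx5 may not be fully separated. The same holds for the other 6 of 7 genes that overlap a protein-coding gene in RefSeq: Cep19 with Pigx, Cep290 with Rlig1, Cep63 with Anapc13, Ift172 with Krtcap3, Ift46 with Arcn1 and Ift74 with Lrrc19.

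Cep85, whose protein restrains the separation of duplicated centrosomes, was at 17.9, 20.2, 19.3, 17.2 and 16.2 CPM in untreated replicates 1 to 5 and 16.4, 13.2, 16.7, 15.9 and 13.5 CPM in RG2833 replicates 1 to 5. The groups overlapped only through untreated replicate 5, which lay below RG2833 replicates 1 and 3. The means were 18.2 ± 1.62 and 15.1 ± 1.65 CPM (SD, n = 5 each), with a log2 fold change of -0.26 (SE 0.09; edgeR adjusted p = 0.841). The exact permutation p for the single gene was 0.0238. Its promoter, chr5:151687811-151688110 (GRCr8, minus strand), held none of the letters searched and is shown to set beside that of Cep95.

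Cep85: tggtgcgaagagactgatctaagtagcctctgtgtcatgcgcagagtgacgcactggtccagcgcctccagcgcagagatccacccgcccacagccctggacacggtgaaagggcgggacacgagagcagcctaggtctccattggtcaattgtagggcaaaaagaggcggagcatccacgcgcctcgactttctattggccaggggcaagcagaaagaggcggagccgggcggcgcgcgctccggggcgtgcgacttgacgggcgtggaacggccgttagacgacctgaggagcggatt

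**Figure D2:**
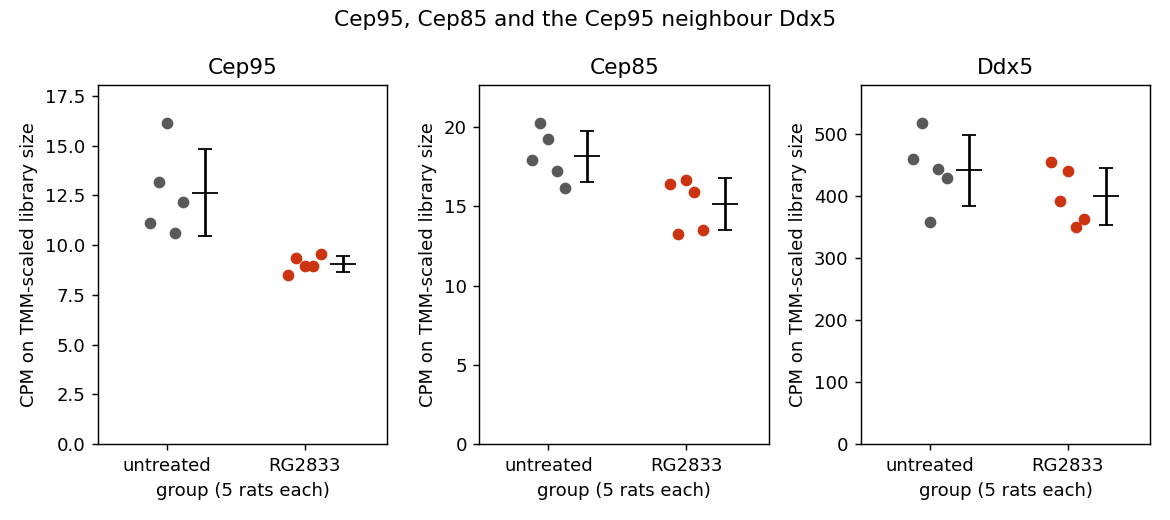
Level of Cep95, Cep85 and the Cep95 neighbour Ddx5 in CPM (vertical axes from 0) for 5 untreated and 5 RG2833 rats; points are rats, and the black mark with its bar is the mean ± SD. The Cep95 groups do not overlap (8.52 to 9.54 CPM in RG2833, 10.6 to 16.1 CPM in untreated rats), while those of Cep85 and Ddx5 do.

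Of all 15 Cep genes tested, Cep95 and Cep85 included, 11 were below 0 and 4 above, with a median log2 fold change of -0.03. After those 2, the lowest values were -0.16 (SE 0.12) for Cep44 and -0.15 (SE 0.09) for Cep57. Cep19, which acts at the ciliary base to start ciliogenesis, had the highest, 0.08 (SE 0.06). Its levels were 59.3, 56.9, 47.3, 56.0 and 52.7 CPM in untreated and 55.9, 57.5, 58.0, 57.2 and 58.6 CPM in RG2833 rats. The RG2833 values lay within a narrow band, and untreated replicate 3 was the lowest of all 10; without it the value was 0.03.

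Cep120, needed for centriole elongation, was at 51.9, 48.7, 37.4, 48.9 and 49.9 CPM in untreated and 47.0, 46.7, 46.6, 39.9 and 43.3 CPM in RG2833 rats, a difference of -0.08 on the log2 scale (SE 0.09). Cep57, a pericentriolar scaffold protein, was at 27.3, 27.4, 23.6, 28.4 and 27.5 CPM in untreated and 26.7, 24.5, 27.0, 20.8 and 21.8 CPM in RG2833 rats, a difference of -0.15 on the log2 scale (SE 0.09). In both genes untreated replicate 3 was the low rat of its group; RG2833 replicates 4 and 5 were the low ones of theirs. The summed neuronal markers were lowest in the same 3 libraries, 5866 CPM in untreated replicate 3 and 6746 and 6646 CPM in RG2833 replicates 4 and 5, against at least 6927 CPM in the other 7. Not every gene of that sum followed it. Map2 was highest in those 3 libraries (1657, 1893 and 2044 CPM), and Gad1 was lowest in untreated replicate 2 (118 CPM). The same 3 libraries, in the same sequence, were the highest in summed markers of astrocytes (10529, 11378 and 11538 CPM), microglia (1367, 1042 and 1110 CPM) and endothelium (457, 404 and 489 CPM). The part of these cell types in Cep120 and Cep57 was not tested. Without untreated replicate 3 the log2 fold change of Cep120 was -0.16.

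Cep41, which takes part in tubulin glutamylation in the cilium, had the widest range of the 32 genes, 1.05 on the log2 scale. It was at 6.87, 9.42, 5.97, 6.80 and 4.51 CPM in untreated and 9.23, 5.96, 6.72, 5.39 and 5.39 CPM in RG2833 rats. The 2 highest values belonged to the 2 choroid-rich libraries, 1 in each group, and the log2 fold change was -0.04 (SE 0.21), turning to 0.12 without untreated replicate 2. Cep290, a gatekeeper of the ciliary base, had a log2 fold change of 0.02 (SE 0.10), and Cep97, which caps the mother centriole together with Ccp110, had 0.01 (SE 0.09). Cep55, which acts in the last cut of cell division, had only 2 to 9 counts in each library, and its change was not detectable at this depth. Markers of dividing cells were also low, 8 genes summing to 19.3 to 25.7 CPM.

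The Ift genes had the narrowest median range over the 10 libraries, 0.40 on the log2 scale, against 0.47 for Cep and 0.47 for Bbs genes. Of 11 tested, 8 were below 0 and 3 above, with a median of -0.07 and a lowest unadjusted p of 0.0502. The family's summed level was 293 to 346 CPM in untreated and 286 to 333 CPM in RG2833 rats.

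Ift74, which with Ift81 binds the tubulin carried by the trains, had the lowest log2 fold change of the family, -0.22 (SE 0.11; edgeR adjusted p = 0.841). It was at 20.0, 24.9, 18.5, 23.3 and 21.5 CPM in untreated and 21.8, 20.3, 18.9, 16.4 and 15.6 CPM in RG2833 rats. The lowest 2 values were RG2833 replicates 4 and 5, and RG2833 replicates 1, 2 and 3 lay inside the untreated range. Its partner Ift81 had a log2 fold change of -0.10 (SE 0.08). Core train subunits Ift52 and Ift88 had values of -0.16 (SE 0.07) and -0.20 (SE 0.09), and neither passed (adjusted p = 0.841 for both).

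Ift172, a large subunit at the edge of the train, was at 47.0, 54.6, 51.0, 48.5 and 47.8 CPM in untreated and 60.3, 52.5, 50.5, 47.4 and 46.7 CPM in RG2833 rats. Its highest value was in RG2833 replicate 1, and its log2 fold change of 0.05 (SE 0.08) was -0.01 without that library. Ift57, another train subunit, was at 43.7, 49.2, 39.5, 46.2 and 45.4 CPM in untreated and 47.2, 42.5, 42.9, 39.8 and 41.6 CPM in RG2833 rats, a difference of -0.07 on the log2 scale (SE 0.07). Ift20, which also works at the Golgi, had the highest change of the family, 0.07 (SE 0.10), with 33.1, 34.0, 43.6, 38.5 and 34.9 CPM in untreated and 39.4, 38.1, 31.8, 43.8 and 39.6 CPM in RG2833 rats. The groups overlapped in all 3 genes. Without the 2 choroid-rich libraries the log2 fold change was 0.014 for Ift172 and 0.023 for Ift20. Leaving out untreated replicate 2 gave -0.03 for Ift57, leaving out untreated replicate 3 gave -0.11, and for Ift20 it ran from 0.02 to 0.13 with 1 library left out.

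Ift80 had the widest range of the family, 0.87 on the log2 scale. It was at 26.8, 33.1, 18.1, 26.7 and 26.1 CPM in untreated and 29.8, 25.3, 26.1, 22.7 and 23.6 CPM in RG2833 rats. The highest and the lowest rat were both untreated, replicates 2 and 3, and the log2 fold change was -0.04 (SE 0.14). It turned to 0.06 without untreated replicate 2.

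Of the 6 Bbs genes, 5 were below 0 and 1 above, with a median of -0.05 and a lowest unadjusted p of 0.171. Bbs4, a BBSome subunit, was the steadiest of the 33 genes, with a range of 0.17 on the log2 scale: 40.2, 40.7, 37.2, 38.0 and 36.8 CPM in untreated and 36.1, 36.2, 39.1, 39.3 and 36.1 CPM in RG2833 rats. Bbs1, which links the BBSome to the membrane, was at 28.9, 37.4, 39.0, 33.4 and 29.2 CPM in untreated and 33.1, 29.1, 32.2, 36.8 and 34.6 CPM in RG2833 rats, a difference of -0.02 on the log2 scale (SE 0.10). For Bbs1 all RG2833 values lay within the untreated range. For Bbs4 the groups overlapped, but RG2833 replicates 1, 2 and 5 lay just below all untreated rats. Without the 2 choroid-rich libraries the log2 fold change was -0.021 for Bbs4, against -0.05, and 0.016 for Bbs1.

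Bbs2, also of the BBSome core, had the highest change, 0.04 (SE 0.07; 0.0096 without the choroid-rich libraries), with 27.4, 27.97, 31.0, 31.8 and 25.6 CPM in untreated and 30.5, 28.2, 28.01, 31.5 and 29.5 CPM in RG2833 rats. Bbs7 had the lowest, -0.14 (SE 0.10), with 14.4, 17.5, 15.8, 18.7 and 14.01 CPM in untreated and 16.5, 13.97, 14.8, 13.2 and 14.3 CPM in RG2833 rats. The low end of Bbs7 was shared by both groups, and its 2 highest values were untreated replicates 4 and 2; without untreated replicate 4 the change was -0.09. Bbs5, another BBSome subunit, had a change of -0.11 (SE 0.14), and Bbs10, a chaperonin-like protein that helps assemble the BBSome, had a change of -0.06 (SE 0.11).

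**Figure D3:**
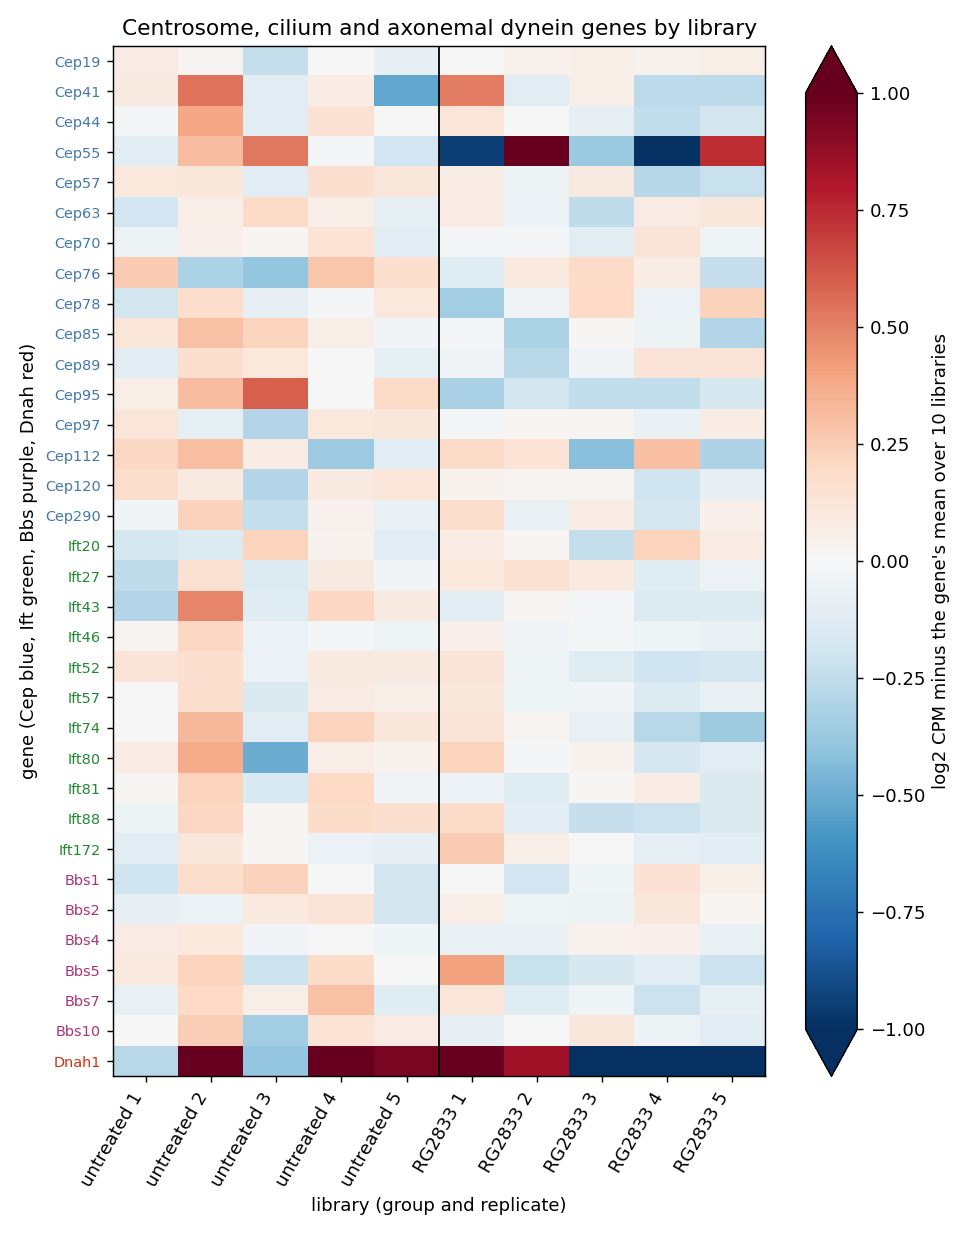
Log2 CPM, with no prior count added, of each of the 34 genes minus its own mean over the 10 libraries (colour, limited to -1 and 1). Libraries are columns, and genes are rows by family. Dnah1 runs past both ends of the colour scale, and Cep55 varies on only 2 to 9 counts a library; most other genes stay pale, with untreated replicate 2 the highest library for 16 of the 32 tested Cep, Ift and Bbs genes.

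Between libraries, the Cep, Ift and Bbs genes varied less than Dnah1. The median range of log2 CPM over the 10 libraries was 0.45 for the 32 Cep, Ift and Bbs genes, 0.60 for all tested genes, 1.78 for the 26 tested genes of a list of other axonemal parts, and 5.01 for Dnah1, whose lowest library held 3 counts. A range over 1, that is over 2-fold, was seen in 1 of the 32 (Cep41) and in 19 of the 26 axonemal genes (73.1%), beside 23.6% of all tested genes. Only 29 of 12161 tested genes had a wider range than Dnah1. Some other primary cilium lists had median ranges above that of all genes: 0.89 for ciliary signalling (4 of 13 genes over 1), 0.66 for the transition zone and 0.64 for other BBSome genes. The lists of other centrosome genes (0.45, with 2 of 32 over 1) and other transport and motor genes (0.53, with 0 of 15) were below it. These ranges describe the libraries and were not tested.

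Dnah1, a heavy chain of the inner dynein arms, was at 2.25, 10.4, 2.09, 8.94 and 5.27 CPM in untreated and 6.97, 4.88, 1.34, 1.06 and 0.21 CPM in RG2833 replicates 1 to 5. These levels rest on 39, 203, 35, 146 and 97 counts and on 108, 86, 21, 17 and 3 counts; for the 3 counts of RG2833 replicate 5 the exact 95% Poisson interval was 0.04 to 0.61 CPM, counting error only. RG2833 replicates 3, 4 and 5 were below all untreated rats, while RG2833 replicates 1 and 2 lay in the middle of the untreated range. The means were 5.79 ± 3.80 and 2.89 ± 2.90 CPM (SD, n = 5 each). The log2 fold change was -0.99 (SE 0.73), which did not pass (edgeR adjusted p = 0.896; exact permutation p = 0.159). Leaving out untreated replicate 2 gave -0.67, leaving out RG2833 replicate 1 gave -1.60, and leaving out both gave -1.28. Its promoter is shown as that of the only dynein gene of the set, chr16:6523397-6523696 (GRCr8, minus strand), with CCGGAAG in capitals.

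Dnah1: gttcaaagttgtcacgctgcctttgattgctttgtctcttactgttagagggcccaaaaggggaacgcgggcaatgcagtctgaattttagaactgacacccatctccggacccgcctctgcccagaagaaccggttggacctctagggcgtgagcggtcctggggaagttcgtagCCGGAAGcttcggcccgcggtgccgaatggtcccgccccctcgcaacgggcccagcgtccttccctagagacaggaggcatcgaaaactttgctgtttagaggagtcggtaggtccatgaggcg

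Several markers of ciliated ependymal cells were high and low in the same rats as Dnah1. Foxj1, the transcription factor of motile cilia, was at 7.56, 41.6, 7.94, 18.4 and 10.1 CPM in untreated and 34.5, 9.26, 5.76, 7.52 and 4.15 CPM in RG2833 rats. The other 7 ependymal marker genes found in the table summed to 21.9, 55.7, 20.8, 47.8 and 32.6 CPM in untreated and 35.1, 33.8, 20.8, 21.4 and 19.5 CPM in RG2833 rats. Untreated replicates 2 and 4 and RG2833 replicate 1 were the 3 highest libraries in Dnah1, in Foxj1 and in that sum, and RG2833 replicate 5 was the lowest in all 3. Foxj1 had a log2 fold change of -0.49 (SE 0.65), and -0.72 without the choroid-rich libraries.

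The 7 genes of the sum did not all behave alike. In Ccdc153, Tmem212, Dynlrb2 and Ak7, untreated replicates 2 and 4 were the 2 highest libraries, as in Dnah1. Rarres2, a secreted chemoattractant, did not follow Dnah1: it was at 12.5, 26.8, 14.2, 14.02 and 16.8 CPM in untreated and 16.5, 18.7, 17.1, 16.8 and 17.3 CPM in RG2833 rats, and so made up most of the sum in the libraries with little Dnah1. Mia and Meig1 were below 0.3 CPM in every library and were not tested. The part of these cells in the Dnah1 values was not tested.

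Choroid plexus RNA followed Dnah1 in some rats and not in others. Untreated replicate 2 was highest in Dnah1 and next to highest in choroid plexus markers (8611 CPM), and RG2833 replicate 5 was lowest in both. Untreated replicate 4, with 8.94 CPM of Dnah1, had 97.3 CPM of choroid plexus markers and 49.9 CPM of Ttr, the transthyretin made by that tissue. RG2833 replicate 1, with the next highest Dnah1, had 9965 and 8190 CPM. RG2833 replicates 3, 4 and 5, with the least Dnah1, had 30.1, 108.2 and 16.9 CPM of the choroid plexus markers, which is within the range of untreated replicates 1, 3, 4 and 5 (42.6 to 310.4 CPM) for replicate 4 and below it for the other two. How much ependymal tissue each sample held was not tested.

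**Figure D4:**
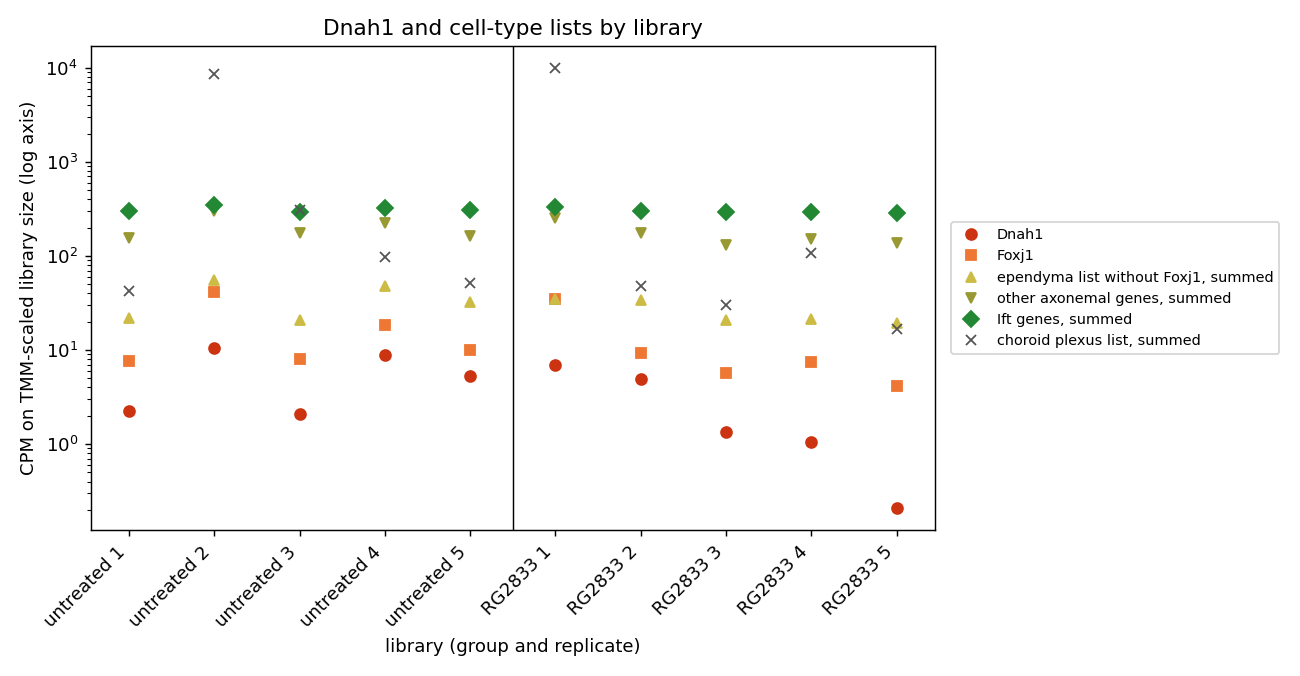
Level in CPM (log axis) of Dnah1, of Foxj1 and of 4 summed gene lists in the 10 libraries, 5 untreated and 5 RG2833; each symbol is 1 library. Dnah1 runs from 0.21 to 10.4 CPM and is highest where Foxj1 and the ependymal sum are highest, while the summed Ift genes stay between 286 and 346 CPM.

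Other axonemal genes had the same direction as Dnah1. A list of dynein intermediate and light chains, assembly factors, docking, radial spoke and tektin genes had 29 of its 53 entries in the table and 26 tested. Of these 24 were below 0 and 2 above, with a median log2 fold change of -0.39, beside 53.5% below 0 and a median of -0.01 for all genes; 0 of the 26 had an unadjusted p under 0.05 and 0 passed. Their summed level was 157 to 300 CPM in untreated and 132 to 254 CPM in RG2833 rats, so the groups overlapped. RG2833 replicate 5 was the lowest library for 11 of the 26 genes, and untreated replicate 2 the highest for 17. The median was -0.10 with 18 of 26 below 0 without untreated replicate 2, and -0.66 with 25 of 26 below 0 and 10 at an unadjusted p under 0.05 without RG2833 replicate 1, where 7.59% of all genes had such a p. Without both it was -0.37, with 24 of 26 below 0 and 5 at an unadjusted p under 0.05, where 4.9% of all genes were.

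The other genes of the primary cilium and centrosome were read from lists. Of 16 transition-zone genes, which form the gate between cell body and cilium, 15 were below 0 with a median of -0.09 (53.5% and -0.01 for all genes), and none had an unadjusted p under 0.05; the count was 11 of 16 without untreated replicate 2, 16 of 16 without RG2833 replicate 1 and 16 of 16 without both. Of 32 other centrosome genes 22 were below 0 (median -0.04), of 15 other transport and motor genes 10 (median -0.06), and of 7 other BBSome genes 5 (median -0.06). Of 13 genes of ciliary signalling, such as Adcy3 and Sstr3, 4 were below 0 and 9 above (median 0.05). Of 5 tested transcription factors of multiciliated cells, 4 were below 0 (median -0.23), and their summed level with 1 untested gene was highest in the 2 choroid-rich libraries. No gene of these lists passed.

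An unadjusted p under 0.05 was found for 3 of the 32 other centrosome genes, 1 of the 15 other transport and motor genes and none of the other 4 lists, beside 5.66% of all genes; nothing is read from so few. Ttbk2, the kinase that starts ciliogenesis at the mother centriole, was at 32.1, 26.5, 36.2, 34.2 and 29.7 CPM in untreated and 33.7, 33.1, 38.1, 46.2 and 47.7 CPM in RG2833 rats, a log2 fold change of 0.32 (SE 0.12; edgeR adjusted p = 0.841). RG2833 replicates 3, 4 and 5 lay above all untreated rats, and replicates 1 and 2 lay within the untreated range. Odf2, of the appendages of the mother centriole, was at 31.7, 31.9, 33.4, 30.7 and 29.2 CPM in untreated and 30.01, 29.4, 25.8, 24.9 and 28.6 CPM in RG2833 rats, which gave a log2 fold change of -0.18 (SE 0.07; edgeR adjusted p = 0.841). For Odf2, RG2833 replicates 1 and 2 lay above untreated replicate 5, and the other 3 lay below all untreated rats.

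Haus8, of the augmin complex that branches microtubules, was at 3.06, 3.64, 3.04, 3.55 and 3.53 CPM in untreated and 2.65, 2.73, 3.13, 2.82 and 2.56 CPM in RG2833 rats, which gave a log2 fold change of -0.28 (SE 0.12; edgeR adjusted p = 0.841). Cluap1, an intraflagellar transport subunit, was at 52.6, 53.5, 55.3, 57.2 and 55.7 CPM in untreated and 49.4, 53.5, 50.3, 48.6 and 50.6 CPM in RG2833 rats, which gave a log2 fold change of -0.12 (SE 0.05; edgeR adjusted p = 0.841). In both, a single RG2833 rat reached into the untreated range, replicate 3 for Haus8 and replicate 2 for Cluap1.

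Markers of other cell types also differed between rats, and their part in the values above was not tested. Of all genes 53.5% were below 0 and 5.66% had an unadjusted p under 0.05. The 8 astrocyte genes were all above 0 with a median log2 fold change of 0.32; Gja1, an astrocyte gap junction gene named after its values were seen, was the only one at an unadjusted p under 0.05 (log2 fold change 0.32, SE 0.12; edgeR adjusted p = 0.841). The list summed to 6779 to 10529 CPM in untreated and 7826 to 11538 CPM in RG2833 rats. Of 10 neuronal genes 9 were below 0 (median -0.11). Of 6 tested ependymal genes 5 were below 0 with a median of -1.08; Ccdc153, named after its values were seen, was the only one at an unadjusted p under 0.05 (log2 fold change -1.11, SE 0.45; edgeR adjusted p = 0.841).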

How the data were processed

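RNA was measured by strand-specific mRNA sequencing of 10 rat hippocampi, 1 rat per library, per the labels' protocols. The expected counts are RSEM estimates the authors deposited, not whole in 11.6% of values; a second table holds the authors' TMM-scaled CPM signal, with column sums of 936577 to 1071278, given here as deposited signal. All of its values above 0 (100%, within 0.01 reads) were whole multiples of 1 step per library; 99.93% of the reads so recovered equalled the rounded expected counts, and the same test on them called 0 genes. Bowtie2 2.1.0, RSEM 1.2.15, edgeR and the build rn6 are named in the submitters' processing notes, with no role given; the annotation is not given in the sources used here.

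Expected counts were rounded, filtered by filterByExpr (minimum count 10, total 15; 12161 of 17168 genes kept), TMM-scaled and tested with edgeR 4.0.16 in R 4.3.3 by the robust quasi-likelihood test; adjustment of p ran over all genes tested (threshold 0.05). Log2 CPM used a prior count of 2. Exact permutation tests were two-sided over all 252 regroupings. The fits were tested on simulated data. Alternatives were DESeq2 1.42.0, limma 3.58.1 on log2 of the deposited CPM plus 1, other scalings and filters, a replicate block, 2 surrogate variables (sva 3.50.0) and left-out libraries. Nothing says that rats of a group came from separate litters or cages.

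The genes, lists, promoters and motifs were chosen with earlier results of these data known, and the motifs kept from a larger number tried, with their matches known. Genes were named by rule: an unadjusted p under 0.05 where none passed, the 3 highest in mean CPM and the highest and lowest log2 fold change per family, the 3 widest ranges, and genes of the pathway lists at an unadjusted p under 0.05 (at most 3 a list). CPM is not per length, so levels are not compared between genes.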

Additional observations from a re-analysis of the deposited data

Results flagged for a closer look

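Of 52 sets of 5 values looked at for a rat far from the rest of its group, 2 were past the mark, where chance gives about 2.6. The mark was a gap over 0.71 of the group's range, both taken on the log2 scale. Both were low in untreated replicate 3. For Cep120 the gap was 0.804 of the untreated range (37.4 CPM, against 48.7 to 51.9 CPM in the other 4 rats). For Cep57 it was 0.794 (23.6 CPM, against 27.3 to 28.4 CPM).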

How the results depend on the processing

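With all genes counted, 0 passed in the analysis as reported, 7 with DESeq2 and 118 with 2 surrogate variables; of the centrosome and cilium genes, 1 passed with surrogate variables (Cep95, log2 fold change -0.47) and 0 in every other alternative, DESeq2 included. Cep95 and Cep85 were the 2 at an unadjusted p under 0.05; the number was 4 with upper-quartile scaling (5.42% of all genes had such a p), 4 with limma (5.28%), 6 with surrogate variables (16%) and 4 without the choroid-rich libraries, untreated replicate 2 and RG2833 replicate 1 (4.9%). With 1 library left out it was 2 to 6, the 6 without RG2833 replicate 1 (7.59%), and 5 without untreated replicate 3 (14.2%). Both genes kept their sign in all 20 alternatives, with adjusted p from 0.0417 to 1.00 for Cep95 and from 0.194 to 1.00 for Cep85. Of the other axonemal genes, of which 26 were tested, 0 were at that p as reported, 1 with limma, 4 with surrogate variables, 5 without the choroid-rich libraries and 0 to 10 with 1 library left out, the 10 without RG2833 replicate 1; the shares of all genes in these fits are those just given. The cause of these moves was not tested.

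Some signs turned, and not only of values near 0. With surrogate variables the log2 fold change was 0.0013 for Bbs1, 0.063 for Cep41 and 0.038 for Ift80. Without the choroid-rich libraries it was 0.016 for Bbs1 and -1.50 for Ttr (0.19 as reported), which was also -1.07 with limma and -2.22 with the replicate block. With 1 library left out it ran from -0.014 to 0.085 for Ift172, -0.068 to 0.041 for Bbs1, -0.20 to 0.12 for Cep41, -0.14 to 0.061 for Ift80, -5.65 to 4.35 for Ttr and -1.36 to 0.15 for Foxj1 (-0.49 as reported; above 0 only without untreated replicate 2). Small values that kept their sign also moved, from 0.00013 to 0.076 for Bbs2 and from -0.063 to -0.027 for Bbs4.

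With the replicate number as a block, 0 genes passed, and Dnah1 was at -1.33 against -0.99. Rats of the same number did not deviate together (correlations across genes of -0.487 to -0.0339), and none correlated best with its own number, so the numbers were not taken as pairs.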
